A study of Mus musculus with 9 samples.

Results

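The myeloid C-type lectin receptors are cell surface proteins with which monocytes, neutrophils, macrophages and dendritic cells sense sugars, lipids and products of dying cells. Of the 20926 genes in the deposited blood expression matrix, 10 were taken by symbol as members of this family, namely Clec4a1, Clec4a2, Clec4a3, Clec4d, Clec4e, Clec4n, Clec7a, Clec12a, Clec5a and Clec10a. All 10 passed the filter on low values and were among the 12366 genes tested. The blood came from male DBA/1 mice, a strain that is susceptible to collagen-induced arthritis (CIA). All libraries are labelled with an age of 7 weeks. That was the age when the mice were divided into groups, before immunisation. The blood of the immunised groups was therefore taken at a later age, which is not given in the sources used here. Blood RNA was sequenced in 9 libraries, with 3 in each of 3 groups. The Ctrl group had no arthritis and no irradiation. The CIA group was immunised with chick type II collagen in complete Freund's adjuvant, an oil that carries killed mycobacteria, was boosted with collagen in incomplete adjuvant, and was not irradiated. The CIA+THz group had the same immunisation, and its swollen ankle received 0.1 THz radiation in daily sessions of 30 min on 14 days under isoflurane anaesthesia. Whether the other groups were anaesthetised is not given in the sources used here, so irradiation and anaesthesia cannot be told apart. The labels number the libraries of a group without naming an animal, and the p-values measure the spread between these libraries.

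Several of these receptors carry no signalling motif of their own and pair with a small adaptor protein. Clec4e (Mincle), Clec4d (MCL) and Clec4n (Dectin-2) use the Fc receptor gamma chain, encoded by Fcer1g, and Clec5a uses DAP12, encoded by Tyrobp. Clec7a (Dectin-1) binds beta-glucan and signals through a motif in its own tail. These activating receptors lead through the kinase Syk to the CARD9, BCL10 and MALT1 complex and to NF-κB. Clec4a2 (DCIR) and Clec12a instead carry an inhibitory motif (ITIM) that recruits phosphatases. Mincle and MCL are known as a pair that recognises the cord factor of mycobacteria, and Dectin-2 recognises mannans.

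Apart from Clec10a, which lies on chromosome 11 (70156197 to 70170834), the members lie on chromosome 6 of GRCm38, the assembly that mm10 names. Clec4a1, Clec4a3, Clec4a2, Clec4n, Clec4d and Clec4e lie in this order in a cluster of 368.0 kb (122921848 to 123289870) that holds 9 protein-coding genes by GENCODE. Clec12a (129342691 to 129365303) and Clec7a (129461591 to 129472779) start 6.42 and 6.55 Mb from the start of Clec4a1. Clec5a lies apart on the same chromosome (40574894 to 40585821). Near-identical copies bear on 2 members, since 4.03% of the 75-base words of Clec4a2 also occur in Clec4a4 or Clec4b1, and 6.42% of those of Clec10a occur in Mgl2. No such word of the other 8 members was found in another gene. Clec4a2 also overlaps Gm44132 on the same strand. Values of Clec4a2 and Clec10a are therefore less certain, since how the authors' counting treated shared reads is not given in the sources used here.

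The 250 bases before the gene start are shown for 5 members whose levels went in different directions below. Clec4a1, Clec4a3 and Clec12a were higher in CIA than in Ctrl. Clec4d and Clec4e had the highest means of the members in Ctrl and were not higher in CIA. In Ctrl 1 and Ctrl 3, Clec7a stood above Clec4d. These windows are from RefSeq on GRCm38.p6, written 5′ to 3′ on the strand of the gene. Capitals mark matches on either strand to GAGGAA (a core bound by PU.1, the main transcription factor of myeloid cells), TTGCNNAA (C/EBP) or TGANTCA (AP-1). The RefSeq table matched 8 of the 10 members, and Clec4n and Clec10a are named only.
Clec4a1, chr6:122921598-122921847, plus strand: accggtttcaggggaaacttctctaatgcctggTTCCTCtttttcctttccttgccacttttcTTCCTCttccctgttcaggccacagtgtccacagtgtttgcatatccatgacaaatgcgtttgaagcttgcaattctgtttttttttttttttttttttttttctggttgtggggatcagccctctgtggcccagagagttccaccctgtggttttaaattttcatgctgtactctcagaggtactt
Clec4a3, chr6:122952394-122952643, plus strand: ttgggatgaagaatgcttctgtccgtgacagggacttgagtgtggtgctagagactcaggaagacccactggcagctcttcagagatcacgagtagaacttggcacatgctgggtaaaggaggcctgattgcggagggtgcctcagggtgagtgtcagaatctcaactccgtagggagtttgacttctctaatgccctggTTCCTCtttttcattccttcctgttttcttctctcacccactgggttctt
Clec12a, chr6:129349994-129350243, plus strand: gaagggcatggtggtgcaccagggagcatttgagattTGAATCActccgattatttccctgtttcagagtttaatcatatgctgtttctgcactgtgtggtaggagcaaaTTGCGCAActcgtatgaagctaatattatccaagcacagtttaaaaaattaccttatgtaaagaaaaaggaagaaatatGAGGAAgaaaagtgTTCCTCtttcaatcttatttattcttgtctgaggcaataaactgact
Clec4d, chr6:123261857-123262106, plus strand: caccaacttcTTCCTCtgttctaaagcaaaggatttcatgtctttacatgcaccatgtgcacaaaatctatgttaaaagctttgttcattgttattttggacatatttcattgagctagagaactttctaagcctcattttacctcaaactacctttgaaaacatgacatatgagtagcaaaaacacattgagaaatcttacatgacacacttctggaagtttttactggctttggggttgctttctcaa
Clec4e, chr6:123289872-123290121, minus strand: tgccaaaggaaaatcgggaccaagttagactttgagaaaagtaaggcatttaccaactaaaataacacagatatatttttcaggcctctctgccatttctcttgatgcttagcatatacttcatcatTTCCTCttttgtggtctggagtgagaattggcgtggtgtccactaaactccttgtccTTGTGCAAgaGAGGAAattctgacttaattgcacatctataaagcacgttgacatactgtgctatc
Clec4a3 has 2 starts in the table, and the window of the other start held no match. The start of Clec12a used here lies inside the longer GENCODE gene. GAGGAA was found before 7 of the 8 members, in Clec4a1, Clec4a3, Clec4d, Clec4e, Clec7a, Clec12a and Clec5a. Of 32851 promoter windows of the same length, 23.3% held it. TTGCNNAA was found in Clec4e and Clec12a, and in 9.56% of all windows. TGANTCA was found in Clec12a, 213 bases before the start, and in 6.75% of all windows. No matches of different motifs overlapped. The GAGGAA match stood before members that were higher in arthritis and before members that were lower, so these letters did not separate the directions. A match is a stretch of letters and does not show that a factor binds there.

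The authors deposited FPKM, which is mapped fragments scaled by the length of the transcript and by the size of the library. Each column was divided here by a median-of-ratios factor, which was 0.847 to 1.06 in the Ctrl and CIA libraries. In the CIA+THz libraries it was 1.10 to 1.24, so the rescaling lowered each irradiated library relative to the others. All levels below are rescaled FPKM, which allows comparison between genes, and fold changes were taken on log2(rescaled FPKM + 0.1), a scale that makes the change of genes near 0 look smaller. FPKM holds no counts, and depth could be set only relative to Ctrl 1, at 1.01 to 1.27 for the other Ctrl and CIA libraries and 1.35 to 1.87 for the CIA+THz libraries. Alas2, a gene of red cell precursors, accounted for 11.4% to 14.0% of the FPKM total in CIA+THz and 14.4% to 16.7% in Ctrl and CIA. Whether this share bears on the factors was not tested. The libraries are labelled blood leukocyte, and T cell, B cell, neutrophil and monocyte markers were found in every library. In a bulk sample, fewer cells of a type and less RNA per cell cannot be told apart.

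The members covered a wide range of levels. Clec4e was the most abundant in each group, with means between 120 and 188, above 96.1% to 97.2% of the genes tested. Clec4d, Clec7a, Clec4a1, Clec4a2 and Clec4a3 followed with means between 24.1 and 147. Clec12a and Clec5a were intermediate, with means between 7.34 and 16.7. Clec4n and Clec10a were low, at single-library values from 0 to 4.24. In Ctrl, the libraries of Clec4e, Clec4d, Clec7a, Clec4a2 and Clec4a3 overlapped from each gene to the next in this order. Clec4a1, Clec5a, Clec12a, Clec4n and Clec10a then followed without overlap between neighbours. In CIA, the order was Clec4e, Clec7a, Clec4d, Clec4a3, Clec4a1, Clec4a2, Clec12a, Clec5a, Clec10a and Clec4n, and 4 of the 9 pairs of neighbours did not overlap, those of Clec7a and Clec4d, of Clec4a2 and Clec12a, of Clec12a and Clec5a, and of Clec5a and Clec10a. Clec12a thus stood below Clec5a in every Ctrl library and above it in every CIA library. In CIA+THz, Clec4e, Clec7a, Clec4a3 and Clec4d overlapped from each to the next, and so did Clec4n and Clec10a at the lower end.

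**Figure D1:**
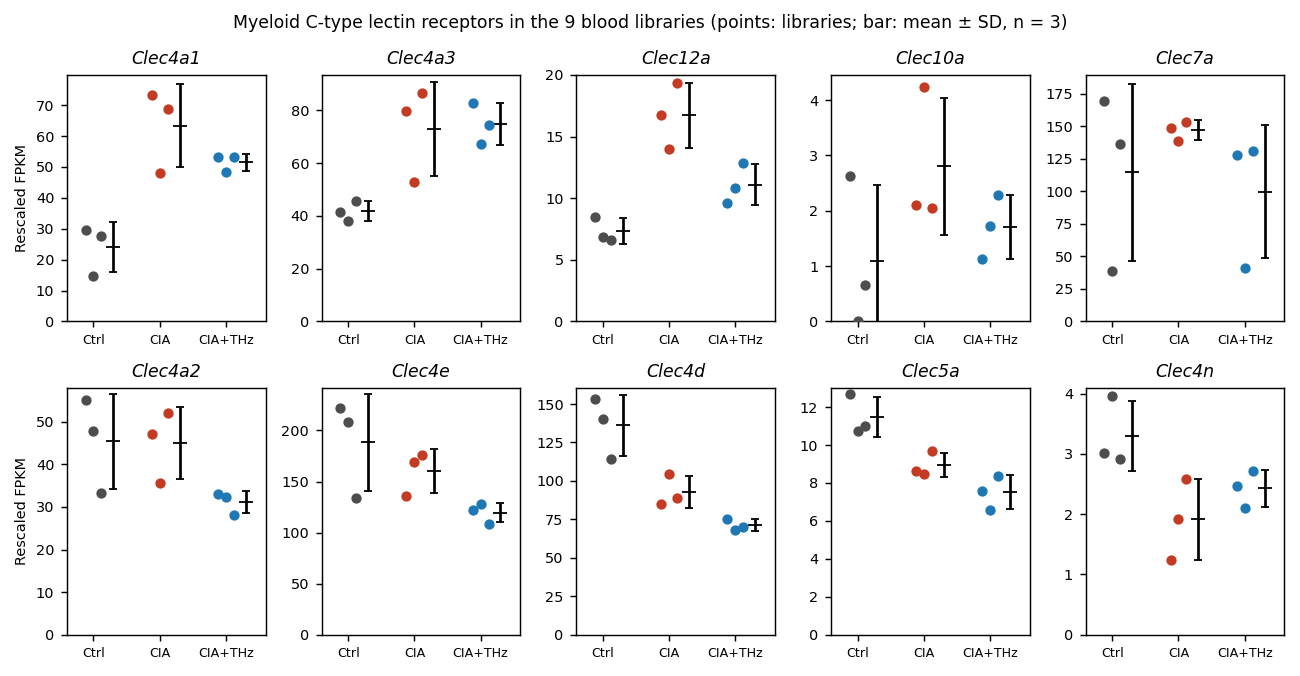
Rescaled FPKM of the 10 receptor genes in each library of Ctrl, CIA and CIA+THz (points), with the mean ± SD (n = 3) beside each group and a linear axis from 0, at which the lower bar of Clec10a in Ctrl is clipped. Clec4a1, Clec4a3 and Clec12a have each CIA library above the highest Ctrl library, Clec4d and Clec5a step down from Ctrl to CIA to CIA+THz, and Clec7a is low in Ctrl 2 and CIA+THz 2.

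Across the 3 groups, limma's moderated F-test found 7 of the 10 members at an unadjusted p under 0.05, where 21.3% of all genes tested reached it. They were Clec4a1, Clec4a2, Clec4a3, Clec4d, Clec4e, Clec12a and Clec5a. With a Benjamini-Hochberg adjusted p under 0.05, 4 members remained, where 2.53% of all genes did. By limma these adjusted p were 0.0170 for Clec4d, 0.0234 for Clec12a, 0.0252 for Clec4a1 and 0.0459 for Clec4a3. With the FPKM as deposited, these 4 were also the members that reached the unadjusted threshold.

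The comparison of CIA with Ctrl asks how blood gene expression differs in arthritic mice. The sources used here describe no adjuvant injection for Ctrl, so arthritis and immunisation cannot be told apart. Clec4a1, Clec4a3 and Clec12a rose in CIA, while Clec4d, Clec4n and Clec5a were lower in every CIA library than in every Ctrl library without passing the criterion. The family as a whole therefore went in no common direction. The rescaled FPKM of Clec4a1, a DCIR relative known from patrolling monocytes (DCIR4), was 29.6, 14.9 and 27.7 in Ctrl and 73.2, 47.9 and 68.8 in CIA. Every CIA library stood above every Ctrl library. This was a log2 fold change of 1.43 ± 0.29 (SE), with an adjusted p of 0.0861 by limma.

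Clec4a3, its neighbour in the cluster and also a DCIR relative (DCIR3), was 41.6, 38.1 and 45.8 in Ctrl and 79.9, 52.7 and 86.5 in CIA. The groups did not overlap, although CIA 2 stood closer to Ctrl than the other CIA libraries. Its log2 fold change was 0.77 ± 0.20 (SE), with an adjusted p of 0.135 by limma. Without CIA 3 it was 0.64 and no longer passed.

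Clec12a, an inhibitory receptor for uric acid crystals from dead cells, was 8.51, 6.88 and 6.62 in Ctrl and 16.8, 14.0 and 19.3 in CIA. Its lowest CIA library was well above its highest Ctrl library. The difference was 1.17 ± 0.18 (SE) on the log2 scale, with an adjusted p of 0.0616 by limma.

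These 3 members met the criterion, which asked for an unadjusted p below 0.05 together with a log2 fold change beyond 0.67 in either direction. Of all genes, 9.04% met it, 4.79% as higher and 4.25% as lower. After adjustment by limma, no member and 19 of all genes were below 0.05 in this comparison, or 0.154% of the genes. Without the limit on fold change, 4 members were below an unadjusted p of 0.05, the other being Clec4d, where 17.3% of all genes were. The members had a median log2 fold change of 0.31, as against -0.01 over all genes tested.

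Clec4d, the mycobacterial receptor MCL, was 154, 141 and 114 in Ctrl and 84.8, 104 and 88.7 in CIA. The 2 groups did not overlap. Its log2 fold change was -0.55 ± 0.15 (SE), which did not reach the limit of 0.67, and without Ctrl 3 it was -0.67 and passed. Its partner Clec4e (Mincle) was 222, 209 and 134 in Ctrl and 136, 170 and 176 in CIA. Here the groups overlapped, because Ctrl 3 lay below the lowest CIA library, and the log2 fold change was -0.21 ± 0.21 (SE).

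Clec4n (Dectin-2) was 3.01, 3.96 and 2.91 in Ctrl and 1.24, 1.92 and 2.58 in CIA. It was lower in all CIA libraries, with a log2 fold change of -0.80 ± 0.34 (SE) and an adjusted p of 0.289 by limma. It passed the criterion in 4 alternatives, without CIA 3, with a minimum mean of 1, without the trend, and with all 9 libraries in a single fit. Clec5a, the DAP12-coupled receptor, was 12.7, 10.7 and 11.0 in Ctrl and 8.66, 8.49 and 9.69 in CIA. These groups did not overlap when rescaled but did as deposited, and the log2 fold change was -0.36 ± 0.15 (SE). Without overlap between CIA and Ctrl, 3 of 10 members were higher and 3 lower when rescaled, as against 11.8% of all genes in each direction.

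Clec4a2 (DCIR), which like Clec12a bears an ITIM, averaged 45.4 ± 11.1 (SD, n = 3) in Ctrl and 45.0 ± 8.38 in CIA. Its log2 fold change was 0.0006 ± 0.22 (SE), so that a difference was not detectable here. Clec10a (MGL1), a receptor for galactose-type sugars on macrophages and dendritic cells, was 2.63, listed at 0, and 0.651 in Ctrl and 2.11, 4.24 and 2.06 in CIA. The groups overlapped, and its fitted log2 fold change of 2.22 ± 1.11 (SE) depends on the pseudocount because of the library at 0. Without Ctrl 2, the library at 0, the log2 fold change was 0.94 and did not pass, and without Ctrl 1 it was 3.33 and passed. It also passed with all 9 libraries in a single fit.

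**Figure D2:**
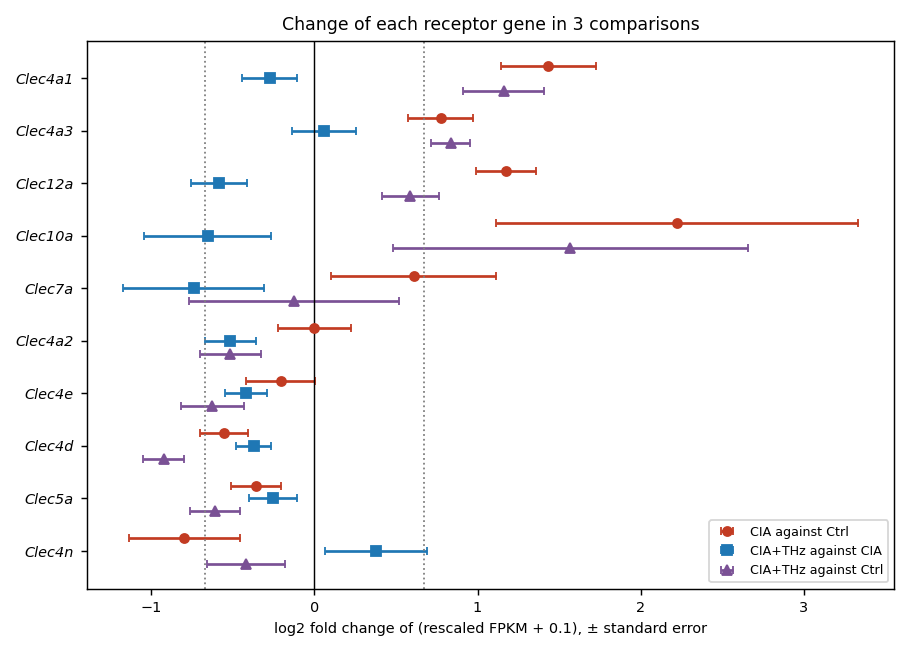
Log2 fold change of each receptor gene with its standard error from limma, for CIA against Ctrl (circles), CIA+THz against CIA (squares) and CIA+THz against Ctrl (triangles), where dotted lines mark the limits of 0.67 and -0.67. Clec4a1, Clec4a3 and Clec12a lie past the upper limit in CIA against Ctrl, and no member lies past a limit with an unadjusted p under 0.05 in CIA+THz against CIA.

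The comparison of CIA+THz with CIA asks how irradiation of the ankle bears on the blood of arthritic mice. No member passed the criterion by limma, which 4.54% of all genes did, 2.94% as higher and 1.6% as lower. At an unadjusted p under 0.05, 4 members were lower in CIA+THz, namely Clec4a2, Clec4d, Clec4e and Clec12a, where 13.2% of all genes had such a p in either direction. After adjustment by limma, no member and 0% of all genes were below 0.05. Of the 10 members, 8 had a negative log2 fold change, and the median was -0.39 as against 0.03 over all genes. The direction rested on the scaling in part, since with the FPKM as deposited 6 of 10 were negative with a median of -0.12, where the median of all genes was 0.29.

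Clec12a was 16.8, 14.0 and 19.3 in CIA and 9.61, 10.8 and 12.9 in CIA+THz. Its irradiated libraries lay between those of Ctrl and those of CIA without overlap with either. The log2 fold change against CIA was -0.58 ± 0.17 (SE), with an adjusted p of 0.265 by limma. It was -0.70 and passed the criterion without CIA 2, and likewise without CIA+THz 3.

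Clec4d was 84.8, 104 and 88.7 in CIA and 75.4, 68.4 and 70.1 in CIA+THz, again without overlap. It was already lower in CIA than in Ctrl, so that the irradiated libraries moved further from Ctrl. The log2 fold change was -0.37 ± 0.11 (SE), with an adjusted p of 0.261 by limma. Clec4e was 136, 170 and 176 in CIA and 122, 128 and 109 in CIA+THz. It had the same pattern of groups without overlap, at a log2 fold change of -0.42 ± 0.13 (SE).

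Clec4a2 was 47.2, 35.7 and 52.0 in CIA and 33.1, 32.3 and 28.2 in CIA+THz. The irradiated libraries were the lowest and lay close together. The log2 fold change was -0.51 ± 0.16 (SE), with an adjusted p of 0.269 by limma, and without CIA 2 it was -0.67 and passed.

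In contrast, Clec4a1 and Clec4a3, which rose in CIA, kept most of that level. Clec4a1 was 53.1, 48.4 and 53.2 in CIA+THz, within the range of the CIA libraries, at a log2 fold change of -0.27 ± 0.17 (SE). Clec4a3 was 82.9, 67.1 and 74.5, also within that range, at 0.06 ± 0.20 (SE). Clec4n was 2.47, 2.10 and 2.71 and overlapped with CIA, at 0.38 ± 0.31 (SE). Clec5a was 7.59, 6.58 and 8.37, below each CIA library, at -0.25 ± 0.15 (SE). Clec10a was 1.13, 1.73 and 2.28 and overlapped with CIA.

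When rescaled, 6 members were lower in all CIA+THz libraries than in all CIA libraries, Clec4a2, Clec4d, Clec4e, Clec7a, Clec12a and Clec5a, where 10.2% of all genes were, and no member was higher in all, where 9.38% of all genes were. With the FPKM as deposited, 0 members were without overlap in either direction, so this count depends on the scaling of the irradiated libraries.

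The CIA+THz libraries were also set against Ctrl. Both comparisons with CIA+THz use the same irradiated libraries, and both comparisons with Ctrl the same controls. Clec4a1 and Clec4a3 rose and Clec4d fell past the criterion, which 7.88% of all genes passed, 4.64% as higher and 3.24% as lower. Clec4a1 was higher by 1.16 ± 0.25 (SE) on the log2 scale and Clec4a3 by 0.84 ± 0.12 (SE). Clec4d fell by 0.92 ± 0.13 on the log2 scale, and its adjusted p of 0.0582 by limma was the lowest of the members. With the FPKM as deposited, the log2 fold change of Clec4d was -0.62 and did not pass, while Clec12a, at 0.89 against 0.59 ± 0.17 (SE) when rescaled, did. Members at an unadjusted p below 0.05 numbered 7, where 18.1% of all genes were, and after adjustment by limma no member was, where 0.105% of all genes were.

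Clec4a1, Clec4a3 and Clec12a were above all Ctrl libraries in every CIA+THz library on both scales, where 11.9% of all genes were when rescaled. Clec4a2, Clec4d, Clec4e, Clec4n and Clec5a were below all Ctrl libraries when rescaled, where 12% of all genes were, and of these Clec4d alone was so as deposited. The median log2 fold change over the members was -0.27, as against 0.04 over all genes. Clec4e was -0.62 ± 0.19 (SE), Clec5a -0.61 ± 0.15 (SE), Clec4a2 -0.51 ± 0.19 (SE) and Clec4n -0.42 ± 0.24 (SE).

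Clec7a, the beta-glucan receptor, stood apart because 2 libraries of different groups were low. It was 169, 38.5 and 136 in Ctrl, 149, 139 and 154 in CIA, and 128, 40.8 and 131 in CIA+THz. Ctrl 2 and CIA+THz 2 thus lay between 38.5 and 40.8, while the other 7 libraries lay between 128 and 169. The spread within Ctrl and CIA+THz was larger than any difference between groups, and the log2 fold change of CIA against Ctrl was 0.61 ± 0.51 (SE), or -0.05 without Ctrl 2. Against CIA, CIA+THz was at -0.74 ± 0.43 (SE), or -0.18 without CIA+THz 2. GENCODE lists Clec7a as a polymorphic pseudogene, a class of genes that is coding in some strains or individuals and not in others. Whether this bears on the 2 low libraries was not tested. Of the 9748 genes with a mean of at least 1, 3 including Clec7a were in both of these libraries below 0.5 times the lowest other library, and over the 36 possible pairs of libraries this number lay between 0 and 17 with a median of 2.5. Without these libraries, Clec4a1, Clec4a3 and Clec4d still passed the criterion in CIA+THz against Ctrl, at 0.89, 0.85 and -0.86.

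Along the Clec4 cluster, the sign of the fitted change differed between the members at the end of Clec4a1 and those at the end of Clec4e in CIA against Ctrl. In CIA against Ctrl, Clec4a1 and Clec4a3, whose starts are 30.7 kb apart, were positive, Clec4a2, 184.6 kb from the start of Clec4a1, was near 0, and Clec4n, Clec4d and Clec4e, at 308.0 to 368.0 kb, were negative. None of these 3 negative members passed the criterion, and Clec4e was at -0.21 ± 0.21 (SE). In CIA+THz against CIA no such order was seen, with Clec4a1 at -0.27, Clec4a3 at 0.06, Clec4a2 at -0.51, Clec4n at 0.38, Clec4d at -0.37 and Clec4e at -0.42. The other coding genes of the cluster, Clec4a4, Clec4b1 and Clec4b2, were at or below 1.61 in each library.

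**Figure D3:**
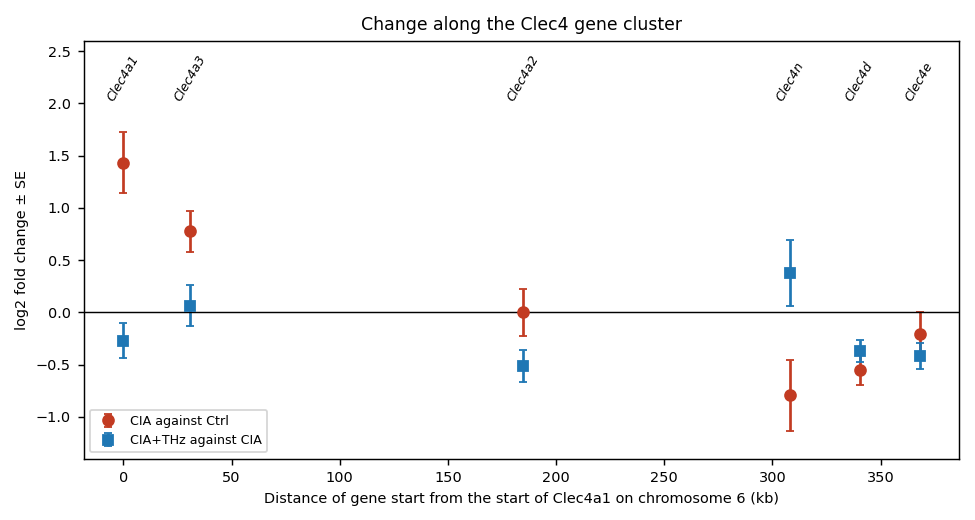
Log2 fold change ± SE of the 6 members of the Clec4 cluster against the distance of the gene start from that of Clec4a1 on chromosome 6 (kb), for CIA against Ctrl (circles) and CIA+THz against CIA (squares). In CIA against Ctrl the values go from 1.43 at Clec4a1 to -0.80 at Clec4n and -0.21 at Clec4e.

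Since the factor that scales a library cancels within it, the share of each member in the summed FPKM of the 10 genes was also taken. Clec4a1 made up 4.18% ± 1.24 (SD, n = 3) of the sum in Ctrl, against 10.3% ± 1.97 in CIA and 11.0% ± 0.832 in CIA+THz. Clec4a3 made up 7.46% ± 1.48 in Ctrl, against 11.9% ± 2.37 in CIA and 15.9% ± 0.714 in CIA+THz. Its share was higher in every CIA+THz library than in every CIA library. Clec4d made up 23.9% ± 3.12 in Ctrl, against 15.2% ± 2.48 in CIA and 15.2% ± 1.40 in CIA+THz. Its share in CIA+THz did not go below that in CIA, unlike its rescaled level.

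Clec12a made up 1.29% ± 0.0648 of the sum in Ctrl, against 2.72% ± 0.263 in CIA and 2.38% ± 0.448 in CIA+THz. Clec5a made up 2.02% ± 0.177, 1.46% ± 0.0128 and 1.60% ± 0.115, and Clec4n 0.592% ± 0.174, 0.310% ± 0.0939 and 0.516% ± 0.0359, in the same order of groups. The shares of Clec5a and Clec4n were higher in every CIA+THz library than in every CIA library. Where 2 groups did not overlap, the two-sided exact permutation test gave p = 0.1, the smallest that 3 libraries against 3 allow, so no share could pass a threshold of 0.05 before or after adjustment over the 30 comparisons.

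As a pair chosen after the values were seen, Clec4a1 and Clec4a3 together made up 10.2%, 10.4% and 14.3% of the sum in Ctrl, 25.6%, 17.4% and 23.6% in CIA, and 26.4%, 28.5% and 25.9% in CIA+THz. Clec4d and Clec4e together made up 53.8%, 68.5% and 48.5% in Ctrl, 36.8%, 47.4% and 40.1% in CIA, and 38.4%, 48.3% and 36.4% in CIA+THz. Each library of both arthritic groups thus held a larger share of the DCIR relatives and a smaller share of the mycobacterial receptor pair than each Ctrl library. The share of each gene depends on the other 9, and in Ctrl 2 and CIA+THz 2 the low Clec7a raises the rest.

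**Figure D4:**
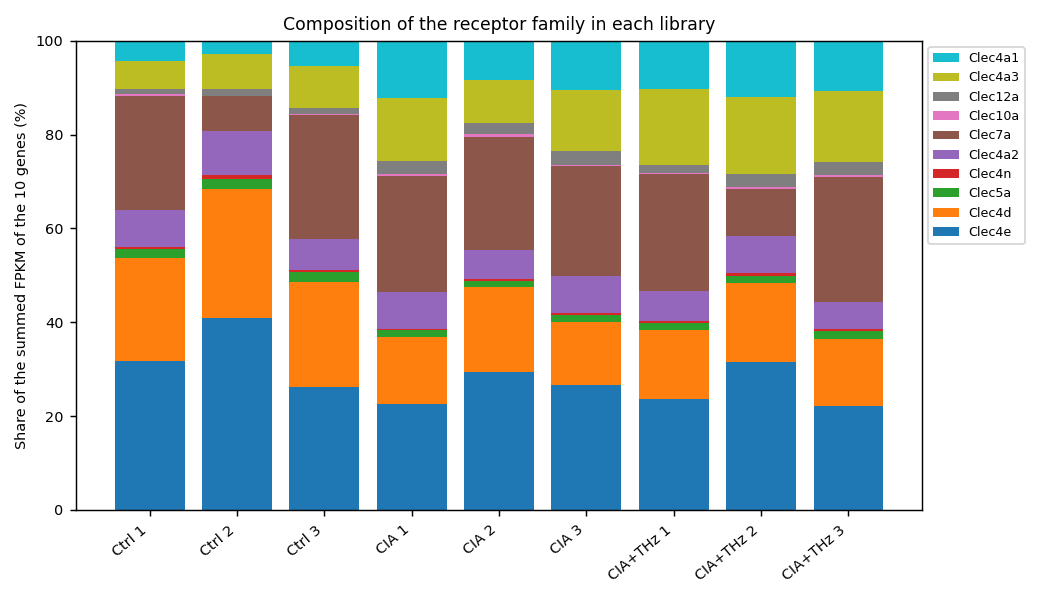
Share of each of the 10 genes in their summed FPKM (%), stacked from 0 to 100 for each of the 9 libraries. Clec4e and Clec4d (bottom) take the largest part in Ctrl, and Clec4a1 and Clec4a3 (top) grow from 10.2% to 14.3% in Ctrl to 17.4% to 28.5% in the CIA and CIA+THz libraries.

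Of the 3 adaptor genes, none passed the criterion by limma in CIA against Ctrl, where 9.04% of all genes did. None passed in CIA+THz against Ctrl, where 7.88% of all genes did. When rescaled, Tyrobp passed in CIA+THz against CIA, where 4.54% of all genes did. Tyrobp was 251, 213 and 216 in Ctrl, 336, 348 and 333 in CIA, and 223, 196 and 220 in CIA+THz. It stood above both other groups in every CIA library. It fell in CIA+THz against CIA just past the limit of 0.67, at -0.672 ± 0.09 (SE) with an adjusted p of 0.172 by limma. As deposited, Tyrobp was 306, 338 and 330 in CIA and 276, 225 and 242 in CIA+THz. These groups lay closer together, so the size of the fall depends on the scaling. In CIA against Ctrl the rescaled change was 0.58 ± 0.11 (SE).

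Fcer1g was 468, 417 and 352 in Ctrl, 594, 628 and 512 in CIA, and 433, 389 and 389 in CIA+THz. It too was highest in every CIA library, at 0.49 ± 0.15 (SE) against Ctrl and -0.51 ± 0.11 (SE) for CIA+THz against CIA. Hcst, which encodes the adaptor DAP10, overlapped between groups in each comparison. The median of the 3 adaptors in CIA+THz against CIA was -0.51 when rescaled and -0.24 as deposited, with all 3 negative on both scales.

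Of 13 genes from Syk to NF-κB, all were tested. By limma none passed the criterion in CIA against Ctrl, where 9.04% of all genes did. None passed in CIA+THz against Ctrl, where 7.88% of all genes did. In CIA+THz against CIA 1 passed when rescaled, where 4.54% of all genes did. This was Card9, the scaffold behind Syk, which was 25.0, 28.6 and 33.2 in CIA and 17.7, 16.7 and 19.0 in CIA+THz. Its log2 fold change was -0.69 ± 0.13 (SE), with an adjusted p of 0.196 by limma. As deposited, Card9 was 22.7, 27.7 and 32.9 in CIA and 21.9, 19.1 and 20.9 in CIA+THz. These groups lay closer together, so the size of the fall depends on the scaling. Across the 3 groups, 6 of the 13 reached the unadjusted threshold, where 21.3% of all genes tested did. After adjustment, 2.53% of all genes were below 0.05. Malt1, the protease of the CARD9 complex, was the 1 gene of the list below 0.05 after adjustment, at an adjusted p of 0.0296 by limma. Named after its values were seen, Malt1 was 20.0, 18.6 and 17.5 in Ctrl, 12.5, 11.1 and 11.9 in CIA, and 18.5, 17.4 and 18.9 in CIA+THz. Its CIA libraries were the lowest, whereas those of Card9 stood above every CIA+THz library. As deposited, Malt1 was 11.4, 10.8 and 11.8 in CIA and 22.9, 19.9 and 20.8 in CIA+THz, further apart than when rescaled. CIA against Ctrl gave a median of 0.002 over the 13 genes, CIA+THz against CIA one of -0.14 and CIA+THz against Ctrl one of -0.03.

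Of 12 cytokines and enzymes that these receptors are known to induce, 7 were tested. In CIA against Ctrl 1 passed the criterion, where 9.04% of all genes did. In CIA+THz against CIA 1 passed, where 4.54% of all genes did. In CIA+THz against Ctrl 2 passed, where 7.88% of all genes did. Tnf was 1.98, 1.89 and 2.41 in Ctrl, 0.988, 1.11 and 1.45 in CIA, and 0.830, 0.771 and 0.681 in CIA+THz. It fell in CIA against Ctrl by 0.78 ± 0.32 on the log2 scale and in CIA+THz against Ctrl by 1.35 ± 0.29. Nlrp3, a sensor of the inflammasome, fell in CIA+THz against Ctrl by 0.77 ± 0.16 without overlap when rescaled. As deposited, the Nlrp3 groups overlapped, at 27.5, 19.4 and 27.9 in Ctrl and 20.6, 14.6 and 18.7 in CIA+THz. Il6 passed as higher in CIA+THz against CIA, but no library exceeded 0.449 and 2 CIA libraries were listed at 0.

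Of 7 myeloid transcription factors, 3 passed the criterion in CIA against Ctrl, where 9.04% of all genes did. Cebpa and Cebpe, which drive the granulocyte lineage, rose, at 0.94 ± 0.22 (SE) and 2.13 ± 0.84 (SE), and Runx1 fell by 0.74 ± 0.29. None passed in CIA+THz against CIA, where 4.54% of all genes did. In CIA+THz against Ctrl 1 passed, where 7.88% of all genes did. Cebpb passed as lower in CIA+THz against Ctrl at -3.18 ± 1.25 (SE), but its values jumped within groups, from 4.56 to 106 in CIA and from 1.52 to 61.6 in CIA+THz. Spi1, which encodes PU.1, did not pass, at 253, 218 and 218 in Ctrl, 281, 391 and 362 in CIA, and 274, 271 and 229 in CIA+THz.

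Of 33 other C-type lectin genes, 32 were in the matrix, 20 were tested and 5 were at 0 in every library. In CIA against Ctrl 2 of the 20 passed the criterion, where 9.04% of all genes did. Cd302 rose, at 2.65 ± 0.62 (SE), and Olr1, the receptor for oxidised lipoprotein, fell by 1.21 ± 0.45 with groups that overlapped. In CIA+THz against CIA 2 passed, where 4.54% of all genes did. Clec2i rose, at 0.83 ± 0.23 (SE), and Clec4g fell by 0.79 ± 0.31. In CIA+THz against Ctrl 1 passed, where 7.88% of all genes did. This was Cd302, which rose, at 2.44 ± 0.60 (SE). The medians of the 20 genes were 0.15, 0.16 and 0.05 in the 3 comparisons, and after adjustment by limma none was below 0.05 in them.

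Markers of the blood cells that carry these receptors moved between the same groups. The criterion was passed by 9.04% of all genes in CIA against Ctrl, the share to set beside the counts of each list. For CIA+THz this share was 4.54% against CIA and 7.88% against Ctrl. Of 8 classical monocyte markers, all 8 were positive in CIA against Ctrl with a median of 0.86, and 5 rose past the criterion (Ccr2, Csf1r, Lyz2, Fn1 and Chil3). Their summed level was 3128 to 3463 in Ctrl, 5418 to 5997 in CIA and 3595 to 3881 in CIA+THz. Lyz2 made up most of this sum, at 2529 to 2812 in Ctrl, 4436 to 4916 in CIA and 2851 to 3078 in CIA+THz. In CIA+THz against CIA all 8 markers were negative when rescaled and 6 were as deposited, with 2 past the criterion (Fn1 and Chil3). Against Ctrl, 6 of the 8 were still positive in CIA+THz with a median of 0.58, and 2 passed (Ccr2 and Fn1). The rise of Clec4a1, Clec4a3 and Clec12a in CIA went with that of these markers, and their part in the result was not tested.

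Of 6 patrolling monocyte markers, Nr4a1 passed as higher in CIA against Ctrl and Ace in CIA+THz against CIA, and in CIA+THz against Ctrl 4 passed (Nr4a1, Ace, Adgre4 and Cx3cr1). Their summed level was 83.7 to 134 in Ctrl, 97.8 to 153 in CIA and 150 to 167 in CIA+THz. Their median in CIA+THz against CIA was 0.32 and their 6 values were positive on both scales, beside the -0.27 of Clec4a1 and the 0.06 of Clec4a3. Whether patrolling monocytes have a part in the levels of these genes was not tested.

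Of 10 mature neutrophil markers, 2 fell in CIA against Ctrl (Mmp8 and Il1r2), 3 fell in CIA+THz against CIA (Retnlg, Il1r2 and Cd177), and 4 fell in CIA+THz against Ctrl (S100a8, Mmp8, Retnlg and Il1r2). Their medians were -0.14, -0.45 and -0.64, and all 10 were negative in CIA+THz against CIA when rescaled and 8 as deposited. Their summed level was 12448 to 21022 in Ctrl, 14298 to 18525 in CIA and 10575 to 12040 in CIA+THz. S100a9 made up most of this sum, at 9176 to 16259 in Ctrl, 11212 to 14496 in CIA and 8096 to 9274 in CIA+THz. Its CIA+THz libraries overlapped with those of Ctrl. Clec4d, Clec4e and Clec5a, which neutrophils express, were lowest in the same group when rescaled. As deposited, Clec5a was not lower in CIA+THz than in CIA, at 9.41, 7.52 and 9.19 against 7.87, 8.23 and 9.61. The part of neutrophils in the levels of these receptor genes was not tested.

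Of 7 immature neutrophil markers, Camp, Ltf and Ngp rose in CIA against Ctrl and fell in CIA+THz against CIA, and stayed higher than Ctrl in CIA+THz, at 2.83 ± 0.52, 2.14 ± 0.22 and 1.17 ± 0.29 (SE) on the log2 scale. The summed level of the list was 296 to 510 in Ctrl, 546 to 1477 in CIA and 326 to 445 in CIA+THz. Lcn2 made up most of the sum in Ctrl, at 243 to 413, and fell in CIA+THz against Ctrl by 0.80 ± 0.21. Of 5 dendritic cell markers, 4 were tested, with Flt3 higher and Xcr1 lower in CIA against Ctrl, and their summed level was 11.5 to 26.5 in Ctrl, 17.9 to 22.1 in CIA and 14.5 to 20.1 in CIA+THz. No marker of the lists of blood cells was at 0 in all libraries. None of 10 ubiquitous genes passed the criterion, and their medians were 0.24, -0.09 and 0.06 for CIA against Ctrl, irradiated against CIA and irradiated against Ctrl.

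The medians of the remaining marker lists are given in that same order. For 6 T cell markers they were -0.28, 0.33 and 0.01, for 4 B cell markers 0.25, 0.20 and 0.45, and for 4 NK cell markers -0.91, 0.52 and -0.39. For the 4 eosinophil and basophil markers tested they were -0.02, 0.31 and 0.33, for 4 platelet markers 0.13, -0.49 and -0.25, and for the 3 erythroid markers in the matrix -0.69, -0.19 and -0.69. No T cell, B cell or platelet marker passed the criterion in any of these comparisons.

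**Figure D5:**
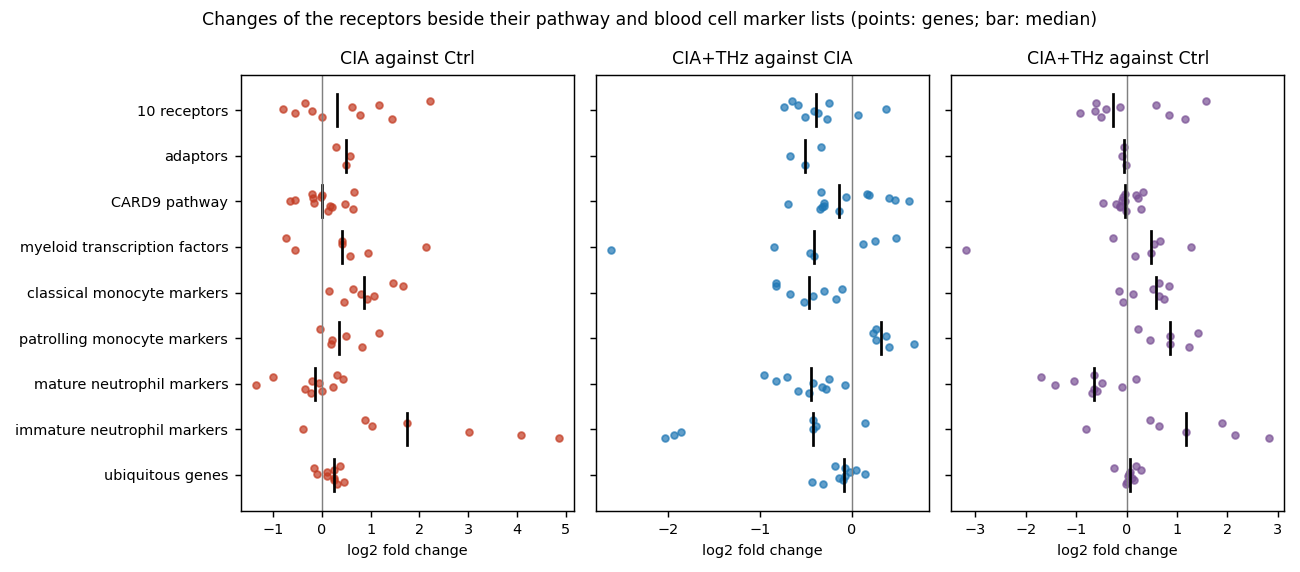
Log2 fold change of the 10 receptors and of the genes tested in 8 other lists (points), with the median of each list as a bar, in the 3 comparisons on separate linear axes. The classical monocyte markers have a median of 0.86 in CIA against Ctrl and -0.47 in CIA+THz against CIA, and the receptors spread to both sides of 0 in each comparison.

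The genes whose log2 level was most like the mean log2 level of the 10 members over the 9 libraries, among 9738 other genes with a mean of at least 1, were Pik3r6, Ppp1r9b, Bri3, Tubgcp4, Cpsf4, Kctd11, Pira4, Arl14ep, Psen2 and Cd300c2. Their Pearson correlations lay between 0.910 for Cd300c2 and 0.948 for Pik3r6. The members' mean was lowest in Ctrl 2, at 3.98, where Clec10a was listed at 0 and Clec7a was low, and highest in CIA 3, at 4.96. These genes were picked as the highest of many, over points that share their groups and libraries, and the correlations are a description.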

How the data were processed

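Blood RNA was sequenced from 9 libraries, 3 per group, in paired-end mode on an Illumina HiSeq instrument. FPKM was deposited by the authors for each library. The submitters' processing notes name bcl2fastq 2.0, HISAT2, StringTie, DESeq2 and the build mm10, while the annotation and the strand setting are not given in the sources used here. The labels gave the group of each library, and no column was left without a sample.

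Median-of-ratios factors, computed on the 10312 genes found in every library, were used to rescale the FPKM. Genes whose rescaled FPKM averaged 0.1 or more, 12366 in number, were fitted as log2(rescaled FPKM + 0.1) with limma 3.58.1 (lmFit, eBayes with trend) in R 4.3.3, after tests on simulated data. The threshold was an unadjusted p of 0.05, and comparisons of 2 groups, which used their 6 libraries alone, also required a log2 fold change beyond 0.67 in either direction. Benjamini-Hochberg adjusted p over all genes tested stand beside it. Shares of the 10-gene sum were compared with two-sided exact permutation tests. Depth and precision of low genes are known only roughly, since FPKM holds no counts.

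Named were the 10 members, the adaptors, the genes of the pathway, transcription factor and other lectin lists past the criterion, and the 10 genes most like the members' mean. The members, the lists and the blood cell marker lists were chosen with earlier results of these data known. A further gene list is not reported here. Malt1, Spi1, the markers named and the 2 pairs of shares were named after their values were seen. Gene positions are from GENCODE M21 on GRCm38 and promoters from RefSeq on GRCm38.p6. Alternatives were FPKM as deposited, a pseudocount of 1, no filter, a minimum mean of 1, no trend, the replicate number as a block, all libraries in a single fit, the adjusted p and each library left out. Leaving out Ctrl 2 and CIA+THz 2 together was chosen after seeing the data.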

Additional observations from a re-analysis of the deposited data

How the results depend on the processing

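FPKM as deposited moved the members called across the 3 groups from 7 to 4, and all genes called from 561 to 1199 in CIA+THz against CIA (64.7% higher, or 94.5% as deposited) and from 975 to 1720 in CIA+THz against Ctrl (58.9% higher, or 93%). The sign then turned for Clec4a1 (0.0042) and Clec5a (0.022) in CIA+THz against CIA and for Clec7a (0.18) in CIA+THz against Ctrl. A pseudocount of 1 gave 283 genes in CIA+THz against CIA, and all 9 libraries in a single fit gave 5 members in CIA against Ctrl. With the adjusted p, limma called 4 members and 313 genes across the groups, 0 and 19 in CIA against Ctrl, 0 and 0 in CIA+THz against CIA (4 members at an unadjusted p under 0.05), and 0 and 13 in CIA+THz against Ctrl. Leaving out each library gave 5 to 7 members and 2059 to 2789 genes across the groups, 3 to 4 and 966 to 1261 in CIA against Ctrl, 0 to 2 and 484 to 745 in CIA+THz against CIA, and 3 to 5 and 724 to 1487 in CIA+THz against Ctrl, where 1487 genes were found without Ctrl 3. In CIA+THz against Ctrl, Clec12a passed without Ctrl 1 (0.70) or CIA+THz 1 (0.69), Clec10a without Ctrl 1 (2.67, but 0.29 and not past the criterion without Ctrl 2), Clec4a2 without Ctrl 3 (-0.72), Clec4e without Ctrl 3 (-0.85) or CIA+THz 2 (-0.67) and Clec5a without CIA+THz 3 (-0.69). Signs turned for Clec4a2 in CIA against Ctrl (-0.21 to 0.16, negative without Ctrl 3, CIA 1 or CIA 3), Clec7a in CIA against Ctrl (-0.048 to 1.02, negative without Ctrl 2), Clec4a3 in CIA+THz against CIA (-0.16 to 0.20, negative without CIA 2 or CIA+THz 1) and Clec7a in CIA+THz against Ctrl (-0.79 to 0.43, positive without Ctrl 1, Ctrl 3 or CIA+THz 2). Without Ctrl 2 and CIA+THz 2, 5 members and 1808 genes were called across the groups and 3 and 848 in CIA+THz against Ctrl. The causes of these moves were not tested.

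With the replicate number as a block, 7 members and 2399 genes were called across the groups, 3 and 1073 in CIA against Ctrl, 0 and 506 in CIA+THz against CIA, and 3 and 967 in CIA+THz against Ctrl. The numbers did not pair the libraries, since deviations from the group means correlated between -0.052 and 0.031 for the same number and between -0.034 and 0.056 for different numbers, and 3 of 9 libraries correlated best with their own number. FPKM holds no counts, and how depth limits the low members Clec4n and Clec10a was not tested.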
